A study of Mus musculus with 12 samples.

Results

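Splenic CD4+ T cells of mice with ligature-induced periodontitis (LIP) were compared between the day of purification and the second day of stimulation in culture. The comparison used 6 of the 12 libraries of the series, LIP 92, 93 and 94 on day 0 and LIP 90, 96 and 97 on day 2, which were assigned by the sample titles. Of 55414 gene records, 14310 passed the filter on low counts and were tested, and these held at least 99.63% of the counts of each library. All mice were male, wild-type BALB/c and 18 weeks old, and in the LIP group silk ligatures had been left around the maxillary second molars for 14 days. Cells of day 0 were lysed uncultured, whereas cells of day 2 had been grown with IL-2 on antibodies to CD28 and the TCR β chain. The treatment labels name anti-CD28 for LIP 90, anti-CD29 for LIP 96 and anti-CD30 for LIP 97, and the methods of the study name anti-CD28 for every culture. IL-2 is given at 10 ng/ml and anti-TCRβ at 1 μg/ml in the labels, against 2.5 ng/ml and 3 μg/ml in the methods. Control mice (CTL) of the same sex, strain, genotype and age carried no ligature, and their 3 libraries of each day are used only where the change in LIP is set beside that in CTL. No cells were cultured without stimulation, so the stimulus, the culture, the elapsed time and the use of different libraries on the 2 days cannot be told apart.

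A naive or resting memory CD4+ T cell is small, divides rarely and keeps its genes for survival and lymph node homing active. When the T cell receptor and CD28 are engaged together, calcium and kinase signals switch on NFAT, AP-1 and NF-κB within minutes to hours, the high-affinity IL-2 receptor is built, and IL-2 then drives the cell through G1 into division. Growth comes with a shift of metabolism towards glycolysis, amino acid uptake, ribosome production and sterol synthesis, and inhibitory receptors are induced at the same time as a brake. Repeated rounds of such activation are one setting in which T cells are studied for senescence, a stable withdrawal from division with secretion of inflammatory factors.

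Expected counts per gene were rounded, scaled with TMM factors and tested in edgeR by quasi-likelihood, and the Benjamini-Hochberg adjustment ran over all 14310 genes. Levels are given as CPM, counts scaled to a common library total with the TMM factor, in the order LIP 92, 93, 94 for day 0 and LIP 90, 96, 97 for day 2, with 3 libraries on each day. A gene is said to have risen or fallen where its adjusted p was under 0.05 and it changed by more than 2-fold. By this rule 3062 genes rose (21.4% of those tested) and 3095 fell (21.6%), and these shares are the background for every count of list members below. In 6111 of the 6157 genes called, the libraries of the 2 days did not overlap, as in 10921 of all genes tested. The change exceeded 10-fold upwards in 509 genes and downwards in 217. The median log2 fold change of all genes was 0.01, and the median of its absolute value was 0.86. The even split depends on the scaling, because with upper-quartile scaling 2298 genes rose and 4149 fell, and with library size alone 2204 rose and 4313 fell. These scalings moved the median of all genes to −0.29 and −0.34 on the log2 scale, so each change below is relative to a centre that the scaling sets.

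Library totals were 6279986 to 6625831 counts on day 0 and 8691699 to 12866718 on day 2, so that a count of 3 equalled 0.233 to 0.478 CPM of the total, and totals alone give no measure of RNA per cell. The first principal component took 88% of the variance and separated the days. The second took 5.77% and set LIP 90 (score 43.1) apart from LIP 96 (−24.1) and LIP 97 (−21.1). LIP 90 differed by more than 2-fold from the mean of the other day 2 libraries in 950 genes, where the same count was 438 for LIP 96 and 439 for LIP 97. Values without LIP 90 are given below beside the nucleolar, tRNA synthetase, amino acid, glycolysis and cholesterol lists. No source used here says whether the libraries of a group came from separate mice, so the p-values cover the spread between these libraries only.

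The labelled cell type was carried by its defining genes on both days. Cd4, the co-receptor that names these cells, was at 569, 530.1 and 581 CPM on day 0 and 493, 418 and 489 CPM on day 2. Cd3e, a signalling chain of the T cell receptor, was at 452, 449 and 491 CPM and then 482, 472 and 473 CPM. The days overlapped for Cd3e and lay slightly apart for Cd4, and neither gene passed the 2-fold limit. Among 16 T cell identity genes 4 rose, namely Cd5 and Cd28, which tune signalling through the receptor, the adhesion molecule Cd2 and the receptor chain Cd3d, and 1 fell, the surface glycoprotein Thy1, which lost its call without LIP 97 (log2 fold change −0.95). In bulk RNA, fewer cells of a type and less RNA per cell cannot be told apart. The summed level of 16 B cell markers was 141 to 171 CPM of the library total on day 0 and 22.3 to 92.8 CPM on day 2, and 8 of them were tested, of which 0 rose and 3 fell. Ighm, the IgM heavy chain, made up most of the day 0 sum, at 114, 107 and 134 CPM and then 18, 32.6 and 34.3 CPM. The other 15 markers summed to 29.5, 33.9 and 36.7 CPM on day 0 and to 4.27, 60.2 and 57.3 CPM on day 2, so that LIP 90 lay below day 0 and LIP 96 and LIP 97 above it. Pax5, the B cell identity factor, was at 0, 0 and 3 counts on day 0 and at 0, 90 and 68 counts on day 2, and Ms4a1, encoding CD20, at 1, 5 and 3 and then 3, 70 and 79. Both were high in LIP 96 and LIP 97 and near 0 in the other LIP libraries. Pax5, Ms4a1, Ighm and Cst3, the last from the myeloid list below, were singled out after their values were seen. The 22 myeloid markers summed to 32.3 to 40.6 CPM and then 35 to 50.8 CPM, with S100a8, S100a9 and Ly6g at 0 throughout, and of 6 tested 1 rose and 3 fell. Cst3, encoding cystatin C, made up much of this sum, at 20.9, 16.4 and 19.8 CPM and then 32.5, 42.9 and 41.9 CPM, and was the member that rose. The other 21 markers summed to 11.4, 18.9 and 20.8 CPM on day 0 and to less in each day 2 library, 2.49, 7.97 and 5.52 CPM. The 8 markers of CD8 T cells and NK cells summed to 12.8 to 18.7 CPM and then 4.35 to 12.9 CPM, with Klra4 and Klra8 at 0, and of 3 tested 2 fell. The 13 erythroid and platelet markers lay at 9.84 to 11.3 CPM and then 4.35 to 6.10 CPM, and neither of 2 tested was called. The 18 pancreatic acinar markers summed to 2.00, 36.6 and 9.66 CPM on day 0, highest in LIP 93, and to between 3.68 and 7.64 CPM on day 2, with Reg1 at 0, and the 1 tested rose. The part of these cells in the results below was not tested.

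**Figure D1:**
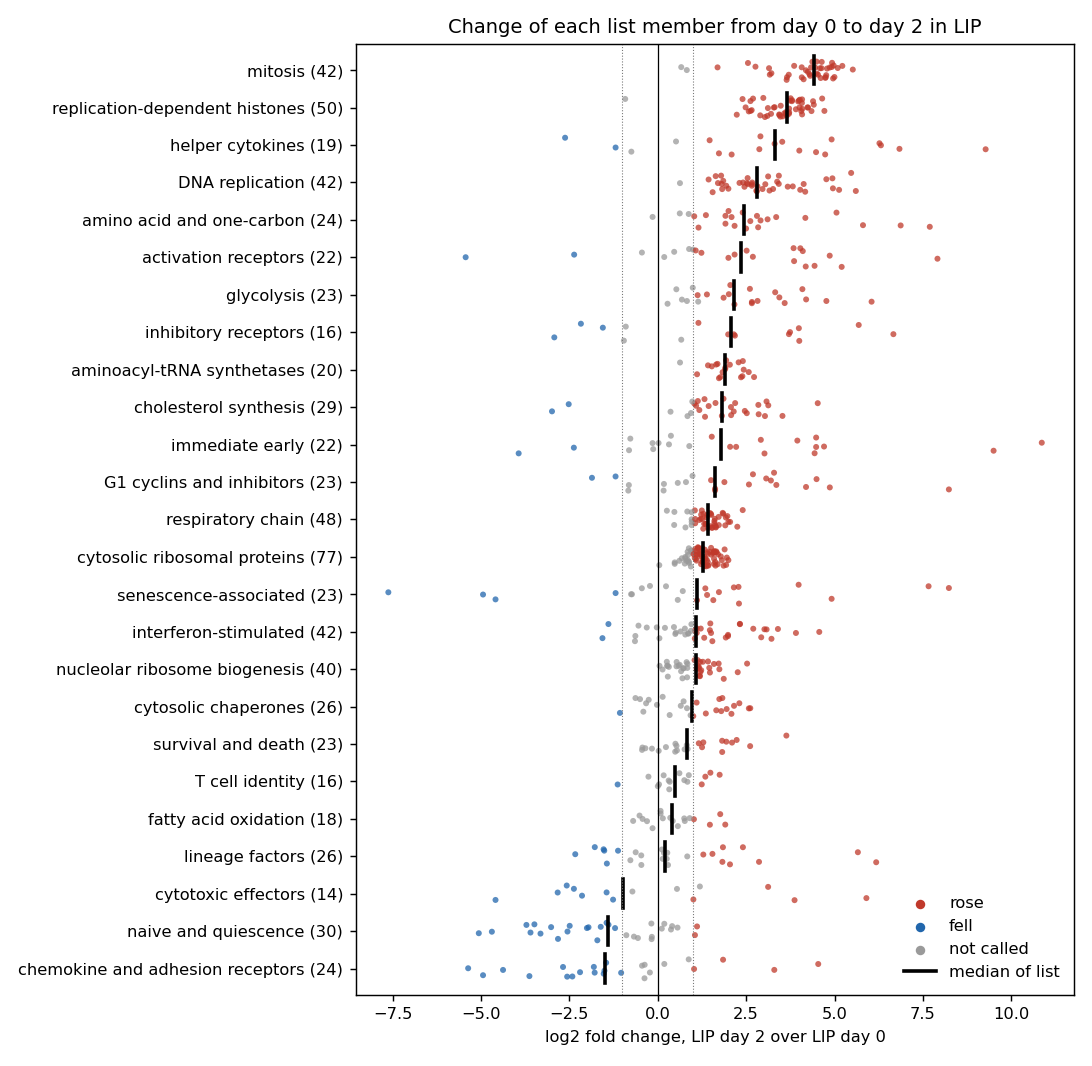
Log2 fold change from LIP day 0 to LIP day 2 of every tested member of the gene lists, with 1 point per gene, a bar at the median of each list and dotted lines at the 2-fold limit; the number tested stands in brackets. Mitosis (median 4.41), histones (3.64) and DNA replication (2.80) lie to the right, and chemokine and adhesion receptors (−1.48) and naive and quiescence genes (−1.42) to the left.

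Most receptors through which a helper T cell receives growth and costimulatory signals rose. Of 22 activation receptors 15 rose and 2 fell, with a median log2 fold change of 2.34 against 0.01 over all genes. Il2ra, the chain that gives the IL-2 receptor its high affinity, was at 101, 103 and 107 CPM on day 0 and 1699.7, 1821 and 1574 CPM on day 2 (log2 fold change 4.03, SE 0.11, adjusted p = 3.01e-07). Its gene lies at chr2:11647618-11698004 of GRCm39. The days were separated by a wide gap and the day 2 libraries were close to each other. Tnfrsf9, which encodes the costimulatory receptor 4-1BB, went from 14.4, 14.1 and 11.5 CPM to 444, 529 and 499.6 CPM (log2 fold change 5.20, SE 0.14, adjusted p = 3.01e-07). Tnfrsf4, encoding OX40, went from 15.2, 15.8 and 20.6 CPM to 365, 339 and 414 CPM (log2 fold change 4.44, SE 0.16, adjusted p = 3.57e-07). Both were high in each day 2 library without overlap. Icos, a relative of CD28 needed for help to B cells, rose from 50.1, 58.6 and 57.7 CPM to 306, 396 and 373 CPM (log2 fold change 2.69, SE 0.13, adjusted p = 1.17e-06). Ly6a, which encodes the surface protein Sca-1, had the largest change of the list, from 2.76, 2.11 and 3.21 CPM to 584, 649 and 729 CPM (log2 fold change 7.91, SE 0.18, adjusted p = 3.01e-07). Tfrc, the transferrin receptor that brings in iron, was at 51.3, 43.8 and 39.5 CPM and then 1599, 284 and 565 CPM (log2 fold change 4.19, SE 0.59, adjusted p = 0.000294). For Tfrc the day 2 libraries themselves differed widely, with LIP 90 highest and LIP 96 lowest, although each lay above day 0. Cd69, an early and short-lived activation marker, was at 177, 152 and 152 CPM and then 248, 309 and 402 CPM (log2 fold change 1.00, SE 0.17, adjusted p = 0.000907), which was just short of the 2-fold limit, and it passed without LIP 90 (log2 fold change 1.17), LIP 92 (1.08) or LIP 96 (1.04). Il18r1, the receptor chain for IL-18, went the other way, from 157, 202 and 199 CPM to 2.75, 6.23 and 3.86 CPM (log2 fold change −5.43, SE 0.26, adjusted p = 1.14e-06).

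Genes that restrain activation moved both ways. The list of inhibitory receptors, which also holds ligands and transcription factors, had 16 members tested, of which 10 rose and 3 fell, with a median of 2.07. Of the 10 receptors themselves 5 rose and 3 fell, whereas both PD-1 ligands and 3 of 4 transcription factors rose. Lag3, which binds MHC class II and restrains T cells, went from 4.01, 3.81 and 3.08 CPM to 208, 502 and 398 CPM (log2 fold change 6.67, SE 0.38, adjusted p = 2.38e-06). Every day 2 library lay far above day 0, and LIP 90 was the lowest of them. Ctla4, which competes with CD28 for its ligands, went from 43.5, 39.9 and 34.8 CPM to 128, 154 and 188 CPM (log2 fold change 1.99, SE 0.16, adjusted p = 1.31e-05). Pdcd1, encoding PD-1, went from 12.4, 11.3 and 15.4 CPM to 78.3, 42.2 and 53.5 CPM (log2 fold change 2.15, SE 0.24, adjusted p = 7.99e-05), with LIP 90 highest. The orphan nuclear receptor Nr4a2, which is induced by T cell receptor signals, rose from under 1 CPM in each day 0 library to 45.8, 13.9 and 34.5 CPM (log2 fold change 5.68, SE 0.57, adjusted p = 4.38e-05). Members that fell were Cd244a, the adhesion receptor Cd96 and Vsir, which encodes the checkpoint molecule VISTA. Cd96 was at 119.8, 107 and 117 CPM and then 23, 27.3 and 25.9 CPM (log2 fold change −2.17, SE 0.11, adjusted p = 1.37e-06). Havcr2, encoding TIM-3, did not pass the filter, with 7, 5 and 2 counts on day 0 and 10, 11 and 5 on day 2.

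**Figure D2:**
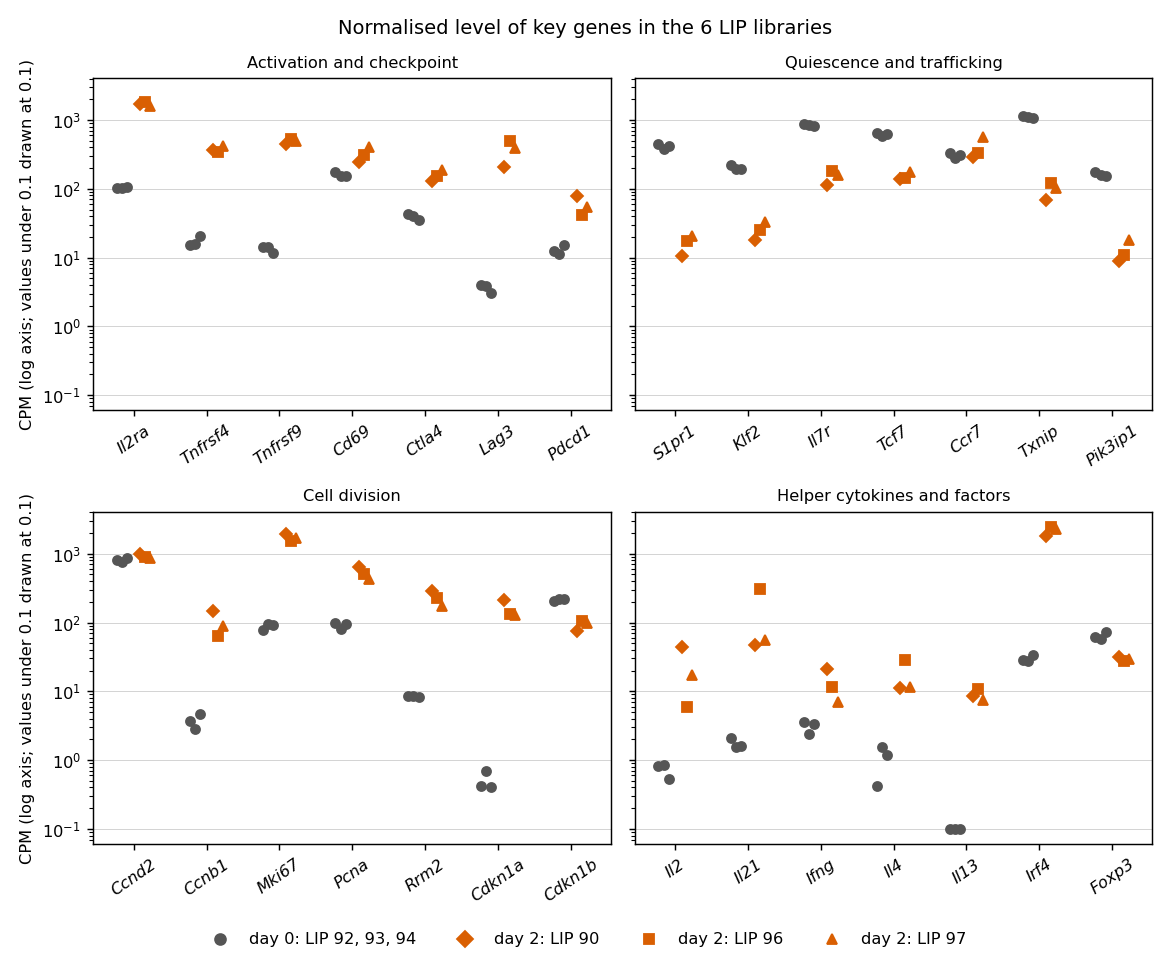
Normalised level in CPM on a log axis of key genes in each LIP library, with circles for day 0 and diamonds, squares and triangles for LIP 90, 96 and 97 of day 2; values under 0.1 CPM are drawn at 0.1. The days do not overlap for Il2ra, Tnfrsf9, Lag3, S1pr1, Klf2, Mki67 and Irf4, whereas they overlap for Ccr7, and Il2 and Il21 spread most among the day 2 libraries.

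Most genes that keep a T cell at rest fell, but the lymph node homing receptor Ccr7 did not pass the test. Of 30 naive and quiescence genes 17 fell and 2 rose, with a median of −1.42. S1pr1, the receptor by which T cells leave lymphoid organs, was at 444, 381 and 418 CPM on day 0 and 10.6, 17.6 and 20.3 CPM on day 2 (log2 fold change −4.69, SE 0.23, adjusted p = 1.17e-06). Klf2, the transcription factor that maintains S1pr1 and quiescence, went from 224, 192 and 196 CPM to 17.8, 25.3 and 33 CPM (log2 fold change −3.02, SE 0.21, adjusted p = 6.18e-06). Il7r, the survival receptor for IL-7, went from 867, 847 and 808 CPM to 112, 180.2 and 156 CPM (log2 fold change −2.49, SE 0.17, adjusted p = 6.16e-06). All 3 were low in each day 2 library with no overlap. Rasgrp2, an exchange factor for the integrin regulator Rap1, fell 33.4-fold, from 221, 256 and 255 CPM to 5.15, 9.76 and 6.95 CPM (adjusted p = 7.57e-07). Pik3ip1, an inhibitor of PI3 kinase, fell 13.1-fold, from 173, 158 and 156 CPM to 8.87, 10.9 and 17.9 CPM (adjusted p = 3.86e-06). Tcf7, encoding the naive cell factor TCF1, fell 4.01-fold (adjusted p = 3.25e-06) and the antiproliferative gene Btg2 2.63-fold (adjusted p = 1.19e-05). In contrast, Ccr7, which guides cells into lymph nodes, was at 335, 282 and 305 CPM and then 291, 334 and 571 CPM (log2 fold change 0.37, SE 0.23, adjusted p = 0.175). The days overlapped, and LIP 97 alone stood well above day 0. Satb1, a chromatin organiser of T cells, rose from 1101, 1069.5 and 1045 CPM to 2024, 2641 and 2282 CPM (log2 fold change 1.11, SE 0.12, adjusted p = 8e-05). Bach2, a repressor of effector programmes, went from 203, 175 and 158 CPM to 423, 285 and 404 CPM (log2 fold change 1.05, SE 0.17, adjusted p = 0.000562), and lost its call without LIP 90 (log2 fold change 0.96) and without LIP 94 (0.98).

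Receptors for migration and adhesion moved mostly downwards. Of 24 tested, 14 fell and 4 rose, with a median of −1.48. Itga4, the α4 integrin chain that takes lymphocytes into inflamed tissue and gut, went from 973, 1035 and 1079 CPM to 40.9, 57.2 and 50.5 CPM (log2 fold change −4.38, SE 0.15, adjusted p = 3.34e-07). Cxcr3, a receptor of Th1 cells, went from 34.3, 35.8 and 49.9 CPM to 9.76, 6.04 and 4.12 CPM (log2 fold change −2.56, SE 0.29, adjusted p = 8.23e-05), and Cxcr4 from 111, 84.1 and 96.7 CPM to 18.8, 43.5 and 39 CPM (log2 fold change −1.53, SE 0.28, adjusted p = 0.00119). Ccr6, a receptor typical of Th17 and some memory cells, was at 2.9, 4.79 and 5.89 CPM and then 0.177, 0.186 and 0 CPM, where the day 2 libraries held at most 2 counts each. The days did not overlap for any of these. The opposite was seen for 2 receptors of Th2 and regulatory T cells. Ccr4 rose from 24.7, 30.2 and 36.1 CPM to 343, 265 and 287 CPM (log2 fold change 3.30, SE 0.17, adjusted p = 1.39e-06), and Ccr8 from 1.93, 1.55 and 2.41 CPM to 35.6, 57.2 and 45.6 CPM (log2 fold change 4.54, SE 0.25, adjusted p = 2.06e-06). The day 2 libraries agreed closely for Ccr4.

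Many helper cytokines were near 0 on day 0, so that they could pass the filter on low counts only through day 2. Of 32 on the list 19 passed, 15 of these rose and 2 fell, with a median of 3.31, a count and a median that this filter tilts towards rises. With at least 10 counts in every library, 7 members were called and the median was 1.66 above that of all genes. Il2, the growth factor of T cells, was at 0.829, 0.846 and 0.535 CPM on day 0 and 44.5, 5.85 and 17.1 CPM on day 2 (log2 fold change 4.92, SE 0.85, adjusted p = 0.000941). Il21, a cytokine of follicular helper cells, was at 2.07, 1.55 and 1.61 CPM and then 47.3, 303 and 55.9 CPM (log2 fold change 6.27, SE 0.91, adjusted p = 0.000353). In both, every day 2 library was above day 0, but Il2 was highest in LIP 90 and Il21 in LIP 96. Ifng, the defining cytokine of Th1 cells, went from 3.59, 2.4 and 3.34 CPM to 21.1, 11.4 and 6.95 CPM (log2 fold change 2.09, SE 0.41, adjusted p = 0.00196), again with LIP 90 highest. Il4, that of Th2 cells, went from 0.414, 1.55 and 1.2 CPM to 11.4, 28.3 and 11.6 CPM (log2 fold change 4.00, SE 0.53, adjusted p = 0.000206). Il13, also of Th2 cells, was at 0 in the day 0 libraries and at 8.52, 10.9 and 7.47 CPM on day 2, which is at least 21.8-fold higher with a floor of 3 counts per library (adjusted p = 2.72e-05). Tnf went from 22.9, 21.8 and 23.1 CPM to 79.6, 72.1 and 73.8 CPM (log2 fold change 1.73, SE 0.10, adjusted p = 2.77e-06), with close agreement within each day. Lif, an IL-6 family cytokine, rose from 0.967, 0.987 and 1.07 CPM to 140.1, 102 and 108 CPM (log2 fold change 6.84, SE 0.21, adjusted p = 3.01e-07). Il10, which dampens immune responses, went from 3 counts in all on day 0 to 15.8, 10 and 10.3 CPM (adjusted p = 1.17e-05). Csf2, encoding GM-CSF, remained low at 1.51, 2.51 and 1.8 CPM on day 2, and still rose (log2 fold change 3.31, SE 0.63, adjusted p = 0.00164). The chemokines Ccl5 and Xcl1 fell. Among the 13 that did not pass, Il17a had 0 counts on day 0 and 3, 29 and 11 on day 2, and Il9 had 0 and then 84, 42 and 7; these were named after their values were seen.

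Transcription factors that set the helper lineage did not move together. Of 26 tested, 9 rose and 6 fell, and the median was 0.22. Irf4, which scales with T cell receptor signal strength, rose 72.4-fold, from 28.6, 27.3 and 33.3 CPM to 1782, 2426 and 2261 CPM (log2 fold change 6.18, SE 0.18, adjusted p = 3.01e-07), and lies at chr13:30933209-30950959 of GRCm39. Its partner Batf rose from 9.67, 16.2 and 17.1 CPM to 55.4, 73.4 and 48.4 CPM (log2 fold change 2.04, SE 0.24, adjusted p = 9.44e-05). The Th1 factor Tbx21 went from 12.4, 15.5 and 17.8 CPM to 66.1, 42.4 and 55.9 CPM (log2 fold change 1.84, SE 0.20, adjusted p = 6.28e-05) and the Th2 factor Gata3 from 64.2, 71.2 and 71.4 CPM to 210.3, 238 and 156 CPM (log2 fold change 1.55, SE 0.16, adjusted p = 4.76e-05). Neither overlapped between the days. Foxp3, the factor of regulatory T cells, went from 61.8, 58.1 and 72.9 CPM to 31.5, 27.7 and 29.2 CPM (log2 fold change −1.12, SE 0.12, adjusted p = 6.76e-05). Day 2 was below day 0 in every library. Bcl6, of follicular helper cells, was at 14.5, 14.1 and 14.3 CPM and 12.4, 5.85 and 13 CPM (adjusted p = 0.161), and its antagonist Prdm1 at 20.2, 24.1 and 23.5 CPM and 27.8, 35.4 and 17.2 CPM (adjusted p = 0.357). Neither passed the test, and the days overlapped for Prdm1 and lay just apart for Bcl6.

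On day 2, the genes that respond within the first hour did not all move the same way. Of 22 immediate early genes 12 rose and 2 fell, with a median of 1.79. Egr1 and Egr2, zinc finger factors driven by receptor signalling, were high in each day 2 library. Egr2 went from 12.3, 12.4 and 14.4 CPM to 225, 188 and 192 CPM (log2 fold change 3.95, SE 0.13, adjusted p = 3.34e-07), and Egr1 from 45.7, 44.3 and 44.5 CPM to 255, 406 and 354 CPM (log2 fold change 2.92, SE 0.17, adjusted p = 2.97e-06). Within the AP-1 factors, Fosl1 was at 0 counts on day 0 and 10, 11.1 and 10.4 CPM on day 2, at least 25.5-fold higher (adjusted p = 1.05e-05). Jun fell from 125, 98.7 and 92.7 CPM to 21.4, 17.3 and 22.5 CPM (log2 fold change −2.37, SE 0.16, adjusted p = 5.21e-06), and Fosb from 25.3, 27.6 and 22.2 CPM to 2.13, 1.58 and 1.03 CPM (log2 fold change −3.93, SE 0.24, adjusted p = 3.21e-06). Fos was at 34.3, 26.1 and 31.8 CPM and then 18.5, 16.3 and 17.8 CPM (log2 fold change −0.81, SE 0.14, adjusted p = 0.000874), below day 0 in each library but within the 2-fold limit. Atf3, a stress-induced member of the ATF family at chr1:190902493-190950241 of GRCm39, was near 0 on day 0, with 2 counts in all, and at 193, 194 and 207 CPM on day 2 (adjusted p = 3.01e-07).

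The machinery of division rose almost as a whole. Of 42 DNA replication genes 41 rose, of 42 mitosis genes 40, and of 50 replication-dependent histone genes 49, with 0 falling in each list and medians of 2.80, 4.41 and 3.64. The summed share of mitosis transcripts went from 0.0836% to 0.847% of CPM, 10.1-fold, that of histones from 0.128% to 1.26%, 9.83-fold, and that of replication genes from 0.1% to 0.679%, 6.76-fold. The sums did not overlap between the days, and the two-sided exact permutation test gave p = 0.1 for each, the smallest value that 3 against 3 libraries allow. Mki67, the proliferation marker Ki-67, was at 77.2, 94.9 and 92.8 CPM on day 0 and 1949.9, 1528 and 1710.2 CPM on day 2 (log2 fold change 4.29, SE 0.15, adjusted p = 3.46e-07). Top2a, which untangles chromosomes, went from 44.6, 47.9 and 49 CPM to 1853, 1528 and 1445 CPM (log2 fold change 5.09, SE 0.14, adjusted p = 3.01e-07). Both were high in each day 2 library, most so in LIP 90. Cdc6, which loads the replicative helicase, rose from 1.66, 3.1 and 2.68 CPM to 113, 120.1 and 97.7 CPM (log2 fold change 5.47, SE 0.20, adjusted p = 4.13e-07), and the helicase subunit Mcm5 from 29.4, 29.2 and 32.6 CPM to 357, 437 and 373 CPM (log2 fold change 3.68, SE 0.12, adjusted p = 3.34e-07). Rrm2, which supplies deoxynucleotides, rose 27.3-fold (adjusted p = 7.68e-07) and the sliding clamp Pcna 5.74-fold (adjusted p = 5.61e-06). Ccnb1, the mitotic cyclin B1, rose 26.7-fold and Plk1, a mitotic kinase, 17.5-fold (adjusted p = 1.01e-05 and 5.61e-06). The single member of each list left uncalled in replication and histones was the DNA-binding protein Rpa1 (log2 fold change 0.63) and the histone H2bc21 (log2 fold change −0.92), which was called as fallen without LIP 93. Histone copies are nearly identical, and how reads were shared among them affects single members more than the sum.

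Around the G1 checkpoint, activators and inhibitors both moved. Of 23 genes 14 rose and 2 fell, with a median of 1.62. Ccne1, cyclin E1 of the G1 to S transition, rose from 3.87, 5.22 and 4.28 CPM to 55.7, 36.5 and 38.5 CPM (log2 fold change 3.29, SE 0.22, adjusted p = 5.38e-06). Ccnd2, the main D-type cyclin of T cells, was at 810.3, 768 and 874 CPM and then 994, 899 and 875 CPM (log2 fold change 0.17, SE 0.10, adjusted p = 0.16), a small difference that did not pass the test. Cdkn1b, the inhibitor p27 that holds resting cells, fell from 204, 218 and 216 CPM to 74.7, 106 and 98.9 CPM (log2 fold change −1.19, SE 0.14, adjusted p = 8.94e-05). Cdkn1a, the p53-responsive inhibitor p21, rose from 0.414, 0.705 and 0.401 CPM to 210.1, 132 and 127 CPM (log2 fold change 8.23, SE 0.34, adjusted p = 6.44e-07). It was near 0 on day 0 and high in each day 2 library, with LIP 90 highest. The senescence inhibitor Cdkn2a, with 1, 1 and 0 counts and then 2, 1 and 1, did not pass the filter.

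Promoter windows of replication and mitosis genes were searched for motifs by which E2F, DREAM and MuvB are known to act on the cell cycle. Both strands were read over the 250 bases before each RefSeq transcript start of GRCm38.p6. This build is another than that of the counts, and sequences were matched by symbol. The 4 E2F forms TTTCCCGC, TTTGGCGC, TTTCGCGC and TTTGCCGC, which can overlap each other, occurred in 9 of 39 windows of replication genes (23.1%), from 33 of 42 genes that matched, and in 1.86% of all 32851 windows. The CHR element TTTGAA occurred in 13 of 36 windows of mitosis genes (36.1%) against 16% of all windows, and the CCAAT box in 26 of 36 (72.2%) against 33.8%. These are counts of letters and no measure of binding. The stretches below show the matches in 2 helicase subunits, in Cdc6 and in 3 mitosis genes, with matches in capitals and all in gene sense. Mcm6 and Ccnb2 were picked for these matches, after their values were seen.
Mcm5, chr8:75109336-75109387, plus strand: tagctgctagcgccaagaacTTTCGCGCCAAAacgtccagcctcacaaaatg
Mcm6, chr1:128359725-128359835, minus strand: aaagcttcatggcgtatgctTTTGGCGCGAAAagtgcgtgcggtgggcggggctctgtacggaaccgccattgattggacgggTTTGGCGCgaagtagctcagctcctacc
Cdc6, chr11:98907993-98908040, plus strand: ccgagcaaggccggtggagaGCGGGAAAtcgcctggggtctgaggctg
Top2a, chr11:99024190-99024436, minus strand: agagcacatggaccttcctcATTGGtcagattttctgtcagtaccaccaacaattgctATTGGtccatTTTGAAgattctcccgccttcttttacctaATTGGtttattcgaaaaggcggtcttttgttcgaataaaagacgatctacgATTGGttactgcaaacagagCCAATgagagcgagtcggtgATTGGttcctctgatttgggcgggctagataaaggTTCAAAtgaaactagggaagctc
Mki67, chr7:135716452-135716587, minus strand: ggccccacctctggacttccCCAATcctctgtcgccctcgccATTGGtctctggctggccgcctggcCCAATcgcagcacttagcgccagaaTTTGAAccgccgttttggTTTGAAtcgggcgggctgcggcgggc
Ccnb2, chr9:70421555-70421741, minus strand: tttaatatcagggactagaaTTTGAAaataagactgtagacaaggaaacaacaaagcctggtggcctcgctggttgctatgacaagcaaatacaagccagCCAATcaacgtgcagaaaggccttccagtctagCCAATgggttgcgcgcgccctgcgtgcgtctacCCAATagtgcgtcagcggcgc
The stretch of Mcm5 begins 173 bases before its start and that of Top2a ends 1 base before it. In Mcm5 and Mcm6 forms read from opposite strands overlap, and Top2a carries 8 matches of the CHR element and CCAAT box together. Of the genes shown, Mcm6 went from 33.4, 34.5 and 42 CPM to 361, 369 and 325 CPM and Ccnb2 from 2.07, 4.09 and 3.34 CPM to 53.6, 26.6 and 40 CPM, and both rose.

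Most genes for making proteins rose, to an extent that depended on the scaling for the ribosome. Of 77 cytosolic ribosomal protein genes 58 rose and 0 fell with TMM scaling (median 1.27), but 35 rose with upper-quartile scaling and 31 with library size alone. Their summed level went from 2.87% to 7.17% of CPM, 2.49-fold, with no overlap between the days (two-sided exact permutation test, p = 0.1, the smallest possible). Rplp0, a protein of the ribosomal stalk, went from 1016, 842 and 987 CPM to 2734, 3275 and 3267 CPM (log2 fold change 1.70, SE 0.13, adjusted p = 1.04e-05), and Rps6, a target of growth signalling, from 809, 758 and 853 CPM to 1657, 2529 and 2276 CPM (log2 fold change 1.42, SE 0.16, adjusted p = 9.19e-05). Both were higher in every day 2 library. Of 40 nucleolar genes that build ribosomes 21 rose and 0 fell (median 1.07), and 9 rose with either other scaling and 14 without LIP 90 (median 0.76). Ncl, encoding nucleolin, went from 394, 417 and 349.9 CPM to 1637, 1193 and 1054 CPM (log2 fold change 1.74, SE 0.17, adjusted p = 4.03e-05), and Myc, the growth regulator of this list, from 73.5, 69.9 and 69.2 CPM to 282, 136 and 223 CPM (log2 fold change 1.59, SE 0.23, adjusted p = 0.000369). Polr1b, a subunit of RNA polymerase I, was at 30.8, 31 and 33.3 CPM and 53.7, 31.6 and 32.7 CPM (adjusted p = 0.194), with overlap. The E-box CACGTG, to which Myc can bind, occurred in 5.41% of the windows of nucleolar genes and in 6.02% of all windows. Of 20 aminoacyl-tRNA synthetases, which charge tRNAs with amino acids, 19 rose (median 1.91), and 18 without LIP 90 (median 2.23). Gars1 went from 62.7, 62.6 and 62.1 CPM to 213, 429.7 and 473 CPM (log2 fold change 2.57, SE 0.27, adjusted p = 5.68e-05) and Wars1 from 40.9, 37.2 and 37.9 CPM to 105, 191 and 181 CPM (log2 fold change 2.04, SE 0.22, adjusted p = 5.97e-05). In both, LIP 90 lay between day 0 and the other day 2 libraries.

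Of 24 genes for amino acid uptake, serine synthesis and one-carbon metabolism 21 rose and 0 fell, with a median of 2.45, and without LIP 90 the counts were the same and the median 2.57. Asns, asparagine synthetase, was at 0.414, 1.55 and 0.936 CPM on day 0 and 45, 276 and 287 CPM on day 2 (log2 fold change 7.69, SE 0.89, adjusted p = 9.51e-05). Psat1, an enzyme of serine synthesis, went from 15.9, 19.5 and 25.4 CPM to 198, 461 and 439.9 CPM (log2 fold change 4.17, SE 0.35, adjusted p = 1.61e-05), and Mthfd2, of mitochondrial folate metabolism, from 35.1, 28.8 and 36.3 CPM to 81.4, 330.1 and 306 CPM (log2 fold change 2.84, SE 0.46, adjusted p = 0.000678). Slc7a5, the large neutral amino acid transporter, went from 27.5, 22.1 and 31.4 CPM to 92.5, 364 and 371 CPM (log2 fold change 3.35, SE 0.49, adjusted p = 0.000347). In all 4, LIP 90 was the lowest library of day 2, well below LIP 96 and LIP 97, but still above day 0. The same held for Chac1, a glutathione-degrading enzyme among the 10 genes with the highest fitted fold change, which had 1 count in all on day 0 and 2.84, 41.7 and 40.2 CPM on day 2 (adjusted p = 0.00111), and for Cth, of cysteine synthesis, with 1 count and then 4.44, 47.4 and 35.4 CPM (adjusted p = 0.000606). The cystine transporter Slc7a11 was at 3.18, 1.97 and 2.14 CPM and 2.22, 14 and 11.6 CPM, with LIP 90 inside the day 0 range. It was among the 21 that rose, and lost its call without LIP 93, LIP 94, LIP 96 or LIP 97 (adjusted p 0.0573 to 0.0739). Slc7a11 is shown for its promoter, the 1 window of 23 in this list with the element TGATGCAA that ATF4 and CHOP recognise. That share was 4.35%, against 0.791% of all windows.
Slc7a11, chr3:50443633-50443699, minus strand: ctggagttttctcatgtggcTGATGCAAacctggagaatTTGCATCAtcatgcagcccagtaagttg
The capitals mark 2 matches, 1 on each strand.

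Glycolysis rose in 17 of 23 genes with 0 falling, and the median was 2.17. Without LIP 90, 16 rose and the median was 1.95. The summed level was 0.212% of CPM on day 0 and 1.34% on day 2, 6.33-fold (two-sided exact permutation test, p = 0.1, the smallest possible). Hk2, the inducible hexokinase, was at 0.553, 2.4 and 2.14 CPM on day 0 and 192, 83.2 and 63.2 CPM on day 2 (log2 fold change 6.05, SE 0.58, adjusted p = 3.38e-05). Tpi1, triose phosphate isomerase, went from 19.8, 21.7 and 18.6 CPM to 1179, 239 and 219 CPM (log2 fold change 4.77, SE 0.69, adjusted p = 0.000345) and Ldha, lactate dehydrogenase A, from 227, 203 and 243 CPM to 2351, 956 and 961 CPM (log2 fold change 2.66, SE 0.35, adjusted p = 0.000188). The day 2 libraries were all above day 0, with LIP 90 well above the other two. The glucose transporter Slc2a1 went from 37.7, 27.8 and 37.2 CPM to 218, 81 and 73.1 CPM (log2 fold change 1.86, SE 0.40, adjusted p = 0.00315). For Slc2a3, another glucose transporter, the libraries of day 2 lay on both sides of day 0, at 245, 38.3 and 55.1 CPM against 82.1, 80.5 and 73.6 CPM (adjusted p = 0.444). Of 48 genes of the respiratory chain 39 rose and 0 fell (median 1.41), and cytochrome c, Cycs, went from 32.2, 36.8 and 36.8 CPM to 135, 97.9 and 97.1 CPM (log2 fold change 1.64, SE 0.15, adjusted p = 2.83e-05). Fatty acid oxidation stood nearer to the background, with 4 of 18 genes risen, 0 fallen and a median of 0.39. Cpt1a, which admits fatty acids to mitochondria, was at 81, 99.1 and 74.8 CPM and 61.1, 54.1 and 63.1 CPM (log2 fold change −0.52, SE 0.13, adjusted p = 0.00668).

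Of 29 genes of cholesterol synthesis and handling 23 rose and 2 fell, with a median of 1.81. Without LIP 90, 17 rose and 2 fell, with a median of 1.21. Sqle, squalene epoxidase, went from 25.8, 25.7 and 26.4 CPM to 165, 80 and 81.9 CPM (log2 fold change 2.07, SE 0.28, adjusted p = 0.000221). LIP 90 was the highest. The members that fell export cholesterol from the cell. Abca1 went from 68.9, 59.6 and 66.6 CPM to 8.78, 8.74 and 6.82 CPM (log2 fold change −2.99, SE 0.14, adjusted p = 9.86e-07) and Abcg1 from 135, 119.5 and 143 CPM to 13.2, 33.1 and 23 CPM (log2 fold change −2.52, SE 0.28, adjusted p = 8.02e-05). The sterol regulatory element TCACNCCAC occurred in 1 of 25 windows of these genes (4%) and in 1.05% of all, and the 1 match lay in Hmgcs1, which makes HMG-CoA, and which was named for it.
Hmgcs1, chr13:119690194-119690242, plus strand: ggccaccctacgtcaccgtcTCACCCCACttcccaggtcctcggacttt
Hmgcs1 itself rose from 60.2, 49.8 and 53.6 CPM to 706, 213 and 257 CPM (log2 fold change 2.85, SE 0.43, adjusted p = 0.00044), with LIP 90 highest.

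**Figure D3:**
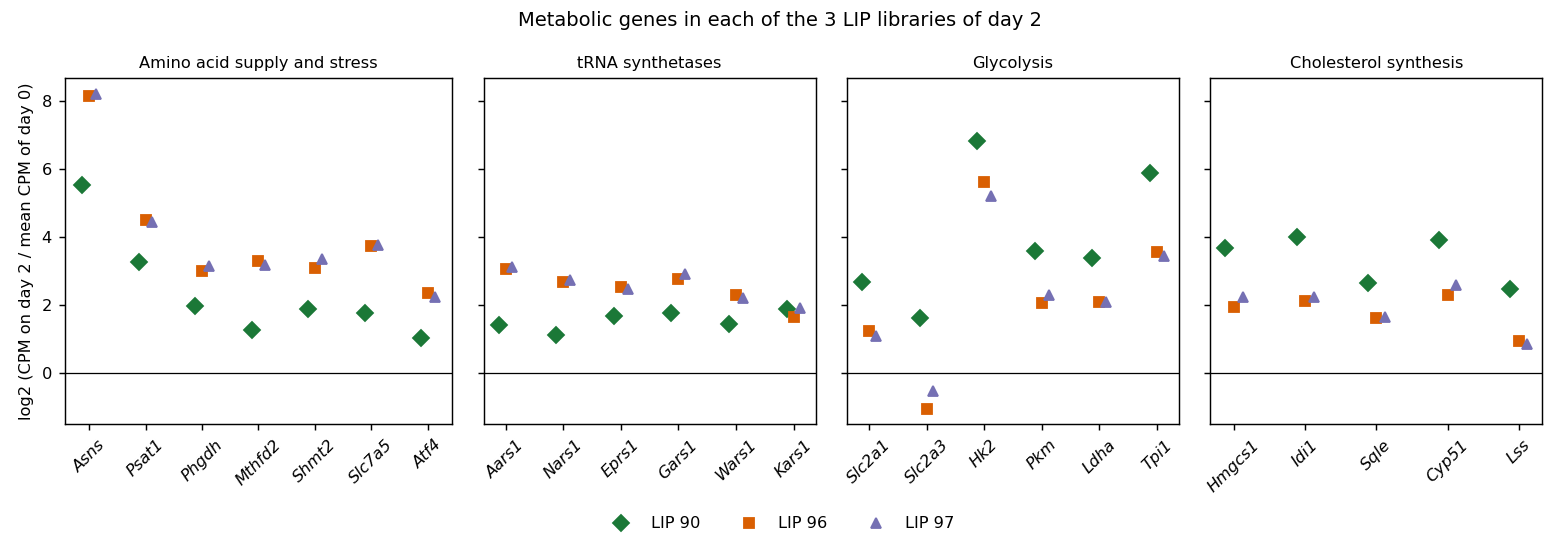
Log2 of the level in each LIP library of day 2 (diamond LIP 90, square LIP 96, triangle LIP 97) over the mean of the 3 LIP libraries of day 0, for genes partly chosen after their values were seen. LIP 90 lies below the others for amino acid supply and most tRNA synthetases and above them for glycolysis and most genes of cholesterol synthesis.

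The spread among the day 2 libraries thus followed metabolic lists, with LIP 90 on 1 side. LIP 90 was more than 2-fold below the mean of LIP 96 and LIP 97 in 13 of 24 amino acid genes and 9 of 20 tRNA synthetases. It was more than 2-fold above that mean in 14 of 23 genes of glycolysis and 13 of 29 of cholesterol synthesis. By the same limit 2 amino acid genes lay above it and 1 cholesterol gene below. Outside the metabolic lists, LIP 90 was also more than 2-fold below it in 5 of 8 B cell markers and 2 of 3 CD8 and NK markers. Over all genes tested the corresponding counts were 564 below and 386 above of 14310. In 12-library scaling, Asns was at 23.2, 18.6 and 19.2 CPM in CTL 92, 93 and 97 of day 2 and at 45.4, 278 and 289 CPM in LIP 90, 96 and 97. Chac1 was at 1.27, 1.67 and 0.568 CPM in CTL against 2.87, 42 and 40.4 CPM in LIP. Il2 was at 63.9, 68.7 and 55.2 CPM against 45, 5.9 and 17.2 CPM. In these genes LIP 90 lay closer to the CTL cultures than to the other LIP cultures. Over 15475 genes, LIP 90 differed by more than 2-fold from the CTL libraries of day 2 in 781 to 1192 genes and from LIP 96 and LIP 97 in 1423 and 1394. LIP 96 and LIP 97 differed from each other in 714. The treatment labels, which name another antibody for LIP 96 and LIP 97 than for LIP 90, also name these antibodies for CTL 93 and CTL 97, and the part of the antibody in this spread was not tested. The B cell genes Pax5 and Ms4a1 showed the same split among the LIP libraries but not among the CTL cultures. Pax5 was at 0, 0.119 and 3.97 CPM and Ms4a1 at 0, 0.358 and 5.9 CPM in CTL 92, 93 and 97, so that CTL 97 carried both, while its Asns, Chac1 and Il2 levels lay near those of the other CTL cultures.

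Some chaperones and interferon-stimulated genes rose. Of 26 cytosolic and mitochondrial chaperones 13 rose and 1 fell (median 0.97), and the fall was lost without LIP 90, LIP 92 or LIP 97. Hsp90ab1, the constitutive HSP90, was at 594, 587 and 618 CPM and then 3605, 3769.8 and 3663 CPM (log2 fold change 2.62, SE 0.11, adjusted p = 6.04e-07), and Hspd1, of the mitochondrial matrix, at 85.7, 92 and 88.2 CPM and 720.4, 445 and 421 CPM (log2 fold change 2.58, SE 0.21, adjusted p = 1.35e-05). Both were clear of day 0 in each library. Hsph1, a heat-inducible co-chaperone, was at 87.5, 84 and 93.1 CPM and 154, 65.2 and 71.3 CPM (adjusted p = 0.689), with overlap. The heat shock element GAANNTTC was in 8 of 31 windows (25.8%) against 6.69% of all. Of 42 interferon-stimulated genes 23 rose and 2 fell (median 1.08). The falls rested on single libraries, with 0 left without LIP 92, LIP 94 or LIP 96, 1 without LIP 93 and 3 without LIP 97. Isg15, a ubiquitin-like modifier, went from 0.967, 0.987 and 2.27 CPM to 21.5, 26 and 55.2 CPM (log2 fold change 4.57, SE 0.49, adjusted p = 6.16e-05) and Ifi44 from 8.15, 3.52 and 8.16 CPM to 51.5, 59.7 and 189.7 CPM (log2 fold change 3.91, SE 0.58, adjusted p = 0.000385). LIP 97 was the highest for both. Gbp2, a GTPase induced mainly by interferon-γ, went from 70.2, 73 and 70.4 CPM to 595, 707 and 952 CPM (log2 fold change 3.40, SE 0.18, adjusted p = 1.69e-06). Ifit3, which restrains viral translation, was at 5.94, 1.69 and 4.55 CPM and 1.77, 1.3 and 5.66 CPM (adjusted p = 0.436).

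Of 14 cytotoxic effector genes 4 rose and 7 fell, with a median of −0.99. The sign of this median depended on low counts, because with at least 10 counts in every library it was 0.47 above the median of all genes. Gzmb, granzyme B, went from 1.38, 2.82 and 2.41 CPM to 155, 129 and 113 CPM (log2 fold change 5.90, SE 0.23, adjusted p = 5.5e-07). Prf1, the pore-forming perforin, went from 31.4, 26.5 and 28.9 CPM to 2.31, 6.88 and 2.83 CPM (log2 fold change −2.83, SE 0.35, adjusted p = 0.000135), and Klrg1, a receptor of terminally differentiated cells, from 4.01, 5.5 and 5.89 CPM to 0.355, 0.186 and 0 CPM (log2 fold change −4.59, SE 0.50, adjusted p = 6.93e-05). The days did not overlap for any of the 3. The NK cell markers Ncr1, with 2.49, 3.52 and 4.95 CPM and then 0.0887, 0.372 and 0.129 CPM, and Klrb1c, with 2.76, 3.1 and 4.55 CPM and then 0, 0.743 and 0 CPM, fell with them, and their part in these values was not tested. Genes of survival and death rose in 10 of 23 with 0 falling (median 0.82). Bcl2l1, encoding the protective Bcl-xL, went from 27.6, 28.3 and 30 CPM to 123, 128 and 117 CPM (4.29-fold, adjusted p = 9.86e-07). Bcl2 was at 539.8, 565 and 535 CPM and 315, 656 and 491 CPM (adjusted p = 0.53), with LIP 90 and LIP 97 below and LIP 96 above day 0.

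A list of 35 senescence-associated genes had 23 members tested, of which 12 rose and 4 fell (median 1.11). The list holds markers that the study followed in these mice beside usual senescence and secretory genes, and it is no independent evidence of a direction. Tnfsf8, encoding CD153, went from 108, 118 and 103 CPM to 1470.1, 2111 and 1619 CPM (log2 fold change 3.98, SE 0.17, adjusted p = 6.81e-07), and Glb1, the lysosomal β-galactosidase, from 18.5, 17.5 and 22.6 CPM to 54.4, 58.7 and 61.3 CPM (log2 fold change 1.57, SE 0.13, adjusted p = 1.52e-05). Both were higher in each day 2 library, and Pdcd1 and Cdkn1a, given above, also belong to the list. Lmnb1, the nuclear lamin B1 that is known to be lost in senescent cells, went from 33.2, 46 and 38.4 CPM to 227, 172 and 173 CPM (log2 fold change 2.28, SE 0.16, adjusted p = 7.43e-06), and thus rose. Mmp9, a matrix metalloproteinase, was at 3.73, 2.54 and 2.27 CPM on day 0 and at 0 counts on day 2, at least 9.2-fold lower (adjusted p = 0.000162). Cd27, which senescent T cells lose, was at 119, 110.4 and 123 CPM and 77.9, 73.7 and 107 CPM (log2 fold change −0.45, SE 0.15, adjusted p = 0.0233), and the telomerase gene Tert at 7.46, 5.78 and 7.89 CPM and 4.17, 7.25 and 6.82 CPM (adjusted p = 0.456). Of the secreted factors that did not pass the filter, Il6 had 0 counts on day 0 and 1, 17 and 8 on day 2, Spp1, encoding osteopontin, had 1, 2 and 0 and then 32, 2 and 4, and Il1b had 0 and then 1, 4 and 2. Spp1 was highest in LIP 90 and Il6 in LIP 96, and neither was tested.

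The 10 called protein-coding genes with the highest fitted fold change and a mean of at least 10 CPM on day 2, some of them members of the lists, were Atf3, Myh7, Edn1, Fosl1, Cth, Chac1, Akr1c18, Lipg, Cdkn1a and Gja1. Their order rests on fitted values over few or no counts on day 0, and gives no order of true size, since the bounds for Myh7, Edn1 and Fosl1 lie below the fitted folds of genes not among these 10, such as Irf4 (72.4-fold). Gja1, the gap junction protein connexin 43, went from 0.414, 0.141 and 1.07 CPM to 100.2, 219 and 183 CPM (log2 fold change 8.21, SE 0.49, adjusted p = 2.93e-06). Edn1, the vasoactive peptide endothelin 1, was at 0 on day 0 and at 28.8, 3.07 and 8.62 CPM on day 2, at least 32.8-fold higher (adjusted p = 0.0039) but at least 14.2-fold without LIP 90, a bound computed after the values were seen, and Myh7, a myosin heavy chain known from heart and slow muscle, was at 0 and then 34.2, 6.69 and 26.3 CPM, at least 54.4-fold higher (adjusted p = 0.000736). LIP 96 was lowest for both. The 10 lowest were Col6a4, Atp8a2, Lrrc75b, Cpne4, Slc16a5, Il18rap, Il18r1, Itga1, Rasgrp2 and Scg5. Atp8a2, a phospholipid flippase, went from 29.4, 36.9 and 37.3 CPM to 0.0887, 0.651 and 0.257 CPM (log2 fold change −6.63, SE 0.35, adjusted p = 1.78e-06), and Il18rap, the second chain of the IL-18 receptor, from 51.1, 70.3 and 74.9 CPM to 0.976, 2.14 and 1.29 CPM (log2 fold change −5.46, SE 0.27, adjusted p = 1.23e-06). The days did not overlap for either gene.

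Direction differed by annotated gene type. Of 11399 protein-coding genes tested, 24.7% rose and 14.3% fell. Of 1137 long non-coding RNA genes, 8.18% rose and 50.5% fell, and of 1028 records of the annotation class TEC, which await experimental proof, 2.63% rose and 57.6% fell. Processed pseudogenes, copies of spliced messages that can share reads with their parent genes, rose in 18.7% and fell in 47.7% of 375. Strand use in the counting is not given in the sources used here, so reads of a gene and of a transcript overlapping it on the other strand may not have been separated.

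**Figure D4:**
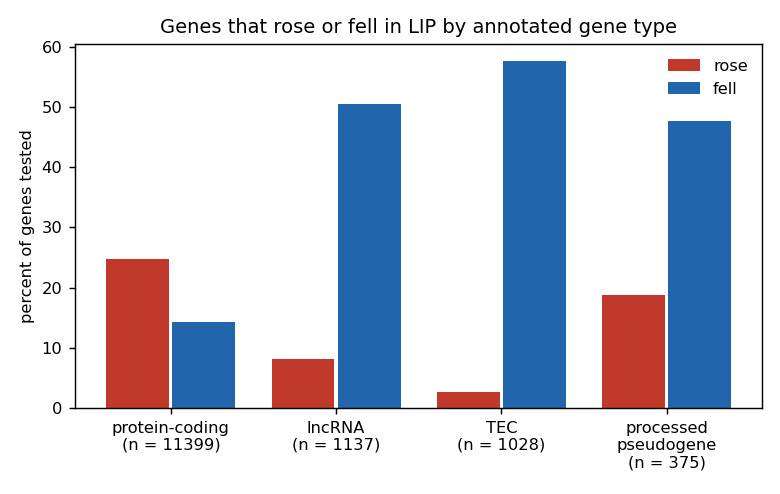
Percent of tested genes that rose or fell from LIP day 0 to LIP day 2, as bars for 4 annotated gene types with the number tested under each. Protein-coding genes rose more often (24.7%) than they fell (14.3%), and in the other types falls outnumber rises.

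The change in LIP was set beside that in CTL, which shares no library with it, in a single fit of 12 libraries and 15475 genes. In that fit 6776 genes were called in LIP and 6134 in CTL, and 5131 were called the same way in both, which is 75.7% of the LIP calls and 83.6% of the CTL calls, while 1 was called in opposite directions. Across genes, which are not independent replicates, the 2 changes had a Pearson r of 0.908. The difference between the changes passed an adjusted p of 0.05 in 8 genes (0.0517% of those tested), and 2464 had an unadjusted p under 0.05. This count is unstable, since it was 531 with DESeq2 and 815 without the filter on low counts, and with any of 5 libraries left out 1 of the 8 was still called. Hsp90ab1 rose from 592, 586 and 617 CPM to 3639, 3798 and 3687 CPM in LIP and from 1305, 1348 and 1184 CPM to 2630, 3004 and 3005 CPM in CTL. The LIP cells of day 0 were thus lower and those of day 2 higher than CTL, and the LIP change was 1.46 larger on the log2 scale (SE 0.13, adjusted p = 0.000672). Parp12, an interferon-induced gene, fell in CTL (log2 fold change −2.72) and was not called in LIP (−0.30), a difference of 2.42 (SE 0.30, adjusted p = 0.0136). Ctsw, a protease of cytotoxic cells, fell in LIP (−2.56) and changed by −0.41 in CTL, a difference of −2.15 (SE 0.31, adjusted p = 0.023).

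Within the lists, the median difference between the changes, LIP minus CTL on the log2 scale, was 0.99 for interferon-stimulated genes, 1.10 for amino acid genes, 0.74 for tRNA synthetases, 0.54 for ribosomal proteins, 0.67 for chaperones and −0.65 for cholesterol synthesis. It was 0.11 for DNA replication, −0.18 for mitosis and −0.19 for activation receptors. For markers of other cells it was 0.85 for 8 B cell, 0.73 for 6 myeloid and 0.72 for 3 CD8 and NK genes. It was 0.53 for 2 erythroid and platelet markers and −6.4 for the 1 acinar marker. The part of such cells in the differences was not tested. Of these lists, members whose difference passed the adjusted p were Hsp90ab1 and Hspa8 among the chaperones and Parp12 among the interferon-stimulated genes. Without LIP 90, 1596 genes (10.1% of those tested) passed. They included 43 of 77 ribosomal proteins, 13 of 20 tRNA synthetases, 15 of 24 amino acid genes, 22 of 42 interferon-stimulated genes and 11 of 26 chaperones with a larger change in LIP, and 20 of 29 cholesterol genes and 12 of 23 glycolysis genes with a smaller one. With LIP 90 and without it, 0 of 42 mitosis genes passed, and 0 and 1 of 42 replication genes.

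**Figure D5:**
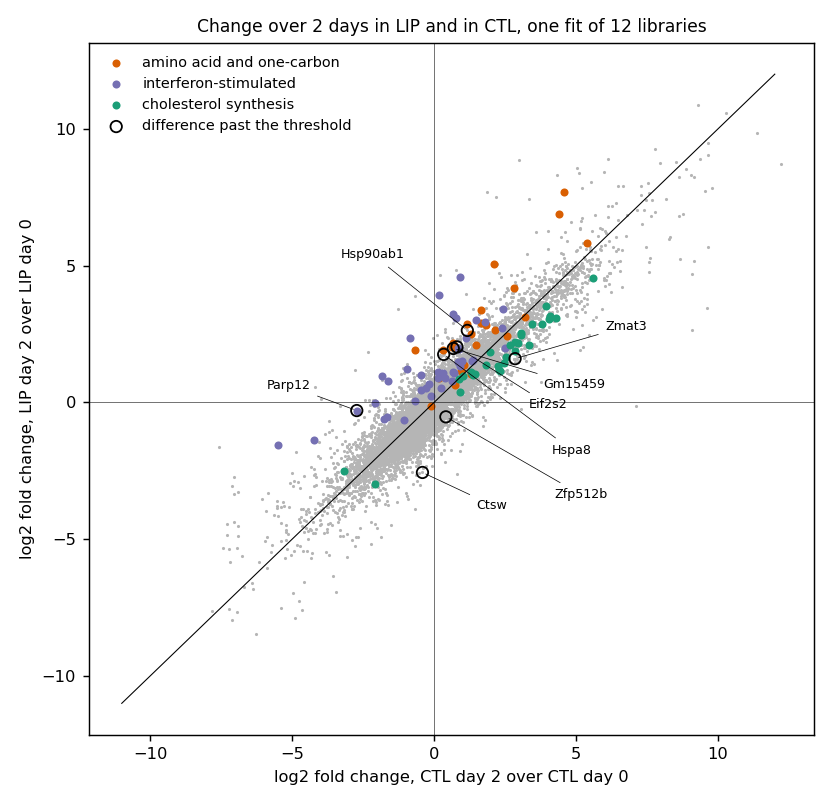
Log2 fold change from day 0 to day 2 in LIP (vertical) against CTL (horizontal) for each gene of the 12-library fit, with amino acid, interferon-stimulated and cholesterol genes coloured, circles around the 8 genes whose difference had an adjusted p under 0.05, and a line of equality. Most genes lie along the line, amino acid and interferon-stimulated genes mostly above it and cholesterol genes mostly below it.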

How the data were processed

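RNA of purified splenic CD4+ T cells was sequenced after ribosomal RNA depletion with a directional kit. The authors deposited expected counts per gene, which RSEM 1.3.0 with Bowtie2 estimated on GRCm39 after FastQC 0.11.9 and Trimmomatic 0.38, per the labels' processing notes. RSEM divides reads between similar genes, so members of multigene families and processed pseudogenes are uncertain. Columns with the authors' own comparisons (fold changes and p-values) and 2 further per-sample columns of the day 2 table were not used.

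Expected counts were rounded and fitted in R 4.3.3 with edgeR 4.0.16 (filterByExpr, TMM factors, quasi-likelihood test, Benjamini-Hochberg adjustment over all genes tested) on the 3 LIP libraries of each day. The difference between the LIP and CTL changes was an interaction term in a fit of all 12 libraries, called at an adjusted p under 0.05. Alternatives used DESeq2 1.42.0, limma 3.58.1 (voom), other scalings and filters, glmTreat and each library left out. The scripts were tested on simulated data. Gene types and positions came from GENCODE M39 (54749 of 55414 records found), and promoter windows from RefSeq GRCm38.p6.

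The comparison and the gene lists were chosen with earlier results of these data known. Genes were named if marked as key in a list, if among the 3 highest or 3 lowest of a list, if among the 10 highest or 10 lowest protein-coding genes called with a mean of at least 10 CPM in the higher group, or if their LIP and CTL changes differed. Other genes are said to have been named after their values were seen, and genes drawn in a figure without mention in the text were chosen likewise. Counting error alone sets a floor of 3 counts per library for genes at 0 in a whole group. Some list members are counted but not reported here by name.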

Additional observations from a re-analysis of the deposited data

Results flagged for a closer look

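In 8 of 15475 genes the change from day 0 to day 2 differed between LIP and CTL by the test of the difference itself (edgeR's quasi-likelihood interaction test, Benjamini-Hochberg adjusted p under 0.05). All 8 kept the direction of their difference under the alternatives of that comparison. Their calls were less stable, since 1 of the 8 was still called without CTL day 0 88 or 89, LIP day 0 92 or 93, or CTL day 2 93, 3 without LIP day 0 94 or LIP 97, 4 without LIP 96 and 7 without CTL day 2 92. Values are the LIP change minus the CTL change on the log2 scale.

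The change was larger in LIP for the chaperones Hsp90ab1 (1.46, adjusted p = 0.000672) and Hspa8 (1.42, adjusted p = 0.0168), which lay lower in LIP than in CTL on day 0 and higher on day 2. Hspa8 went from 427, 422 and 511 CPM to 1289, 1534 and 1770 CPM in LIP and from 821, 931 and 876 CPM to 957, 1141 and 1224 CPM in CTL. The translation initiation factor subunit Eif2s2 rose more in LIP (1.22, adjusted p = 0.0192), with means of 74.6 and 305 CPM against 89.5 and 157 CPM in CTL. Gm15459, a processed pseudogene whose reads may belong to a parent gene, differed by 1.3 (adjusted p = 0.023). Parp12 fell from a mean of 15.6 to 2.34 CPM in CTL and was at 14.6 and 11.9 CPM in LIP, a difference of 2.42 (adjusted p = 0.0136).

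The difference was negative for the cathepsin gene Ctsw (−2.15, adjusted p = 0.023), whose mean went from 36.1 to 6.09 CPM in LIP and from 24.1 to 18.1 CPM in CTL. Zmat3, a p53 target, rose in both groups and less in LIP (−1.25, adjusted p = 0.0273), from 54.5 to 165 CPM against 50.4 to 365 CPM. Zfp512b went from 71.2 to 49.4 CPM in LIP and from 51.6 to 68.9 CPM in CTL, a difference of −0.94 (adjusted p = 0.0263).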

How the results depend on the processing

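No paired analysis was possible because the LIP libraries of day 0 (92, 93 and 94) and of day 2 (90, 96 and 97) share no number. In 16 alternatives of the LIP comparison, 0 called genes changed sign. The counts of 3062 risen and 3095 fallen genes became 5161 and 5068 without the fold limit, and glmTreat left 2179 risen and 1673 fallen. Leaving out each library gave 3062 to 3240 risen and 3014 to 3202 fallen. Among the list members and the genes ranked highest and lowest, 29 calls were lost and 18 gained without LIP 90. In the same set, 73 and 82 calls were lost with upper-quartile scaling and library size alone.

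The 8 genes that differed between LIP and CTL became 97 with library size alone, 531 with DESeq2 and 815 without a filter, and 1 to 1596 with each library left out. The count was 1596 without LIP 90, 27 without CTL day 0 94, 15 without CTL day 2 97, 12 without CTL day 2 92, 4 without LIP 97 of day 2, 3 without LIP day 0 94, and 1 without CTL day 0 88 or 89, LIP day 0 92 or 93, or CTL day 2 93. The cause was not tested.

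Called members fell from 5 to 3 for T cell identity with library size alone, from 21 to 9 for nucleolar genes with either scaling, and from 58 to 35 (upper quartile) and 31 (library size) for ribosomal proteins. Requiring 10 counts in every library, which tests fewer genes, left 7 called helper cytokines of 17, 7 cytotoxic genes of 11, 10 senescence genes of 16, 1 myeloid marker and 0 CD8 and NK markers. The list medians, over the median of all genes, then became 1.66 for helper cytokines, 1.46 for immediate early genes, 0.31 for fatty acid oxidation, and, with a change of sign, 0.47 for cytotoxic genes, 1.31 for myeloid markers and 0.55 for CD8 and NK markers. With each library left out these medians spanned 3.11 to 3.56 for helper cytokines, 1.58 to 1.90 for immediate early genes, 1.58 to 1.76 for G1 genes, 1.23 to 1.99 for cholesterol genes (19 to 27 called), 0.77 to 1.14 for nucleolar genes (14 to 22 called), 0.32 to 0.48 for fatty acid oxidation, −1.14 to 0.39 for myeloid markers and −4.89 to −2.96 for CD8 and NK markers, and 3 to 5 B cell markers were called. The lowest values for the cholesterol and nucleolar genes were those without LIP 90. Without LIP 90, the B cell markers Fcer2a and Cd79b passed the rise limit with log2 fold changes of 2.20 and 2.00.

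With 3 libraries a day and no culture without stimulation, these data measure a combined change. Genes near 3 counts in a library, such as most cytokines on day 0, have folds that depend on few reads.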
